A study of Homo sapiens with 9 samples.

Results

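The Mediator complex was represented in the deposited tables by 33 genes of 13052. They are the rows whose symbol is MED followed by a number, with or without a final L, together with CDK8, CDK19 and CCNC, and every subunit so defined was measured in both comparisons. The kinase module held 7 of them (MED12, MED12L, MED13, MED13L, CDK8, CDK19 and CCNC) and the core held the other 26. The members were chosen by a measured value: the complex was picked because MED12 was low in the authors' deposited table for XRCC1-KO, so every value of that comparison is given here as a description and carries no test. The APE1-KO comparison was not used to pick it, but shares its control libraries.

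Poly(A) RNA was sequenced from 9 libraries of MCF10A, a human mammary epithelial line that is not transformed. There were 3 libraries of Control-KO cells, which express Cas9 and are labelled wild type, 3 of APE1-KO cells and 3 of XRCC1-KO cells, the knockout derivatives of the Cas9-expressing line. All were grown in the same medium with horse serum, epidermal growth factor, cholera toxin, insulin and hydrocortisone. The labels do not say whether a knockout is a single clone or a pool, and they name no separate cultures behind the libraries of a group. The p-values therefore cover the spread between these libraries alone, which may be technical. APE1, encoded by APEX1, cuts DNA at abasic sites, and XRCC1 is a scaffold for single-strand break repair.

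Mediator is a large assembly that passes signals from transcription factors bound at enhancers to RNA polymerase II at promoters. Its head, middle and tail modules are held together by MED14, and a separate kinase module binds the core reversibly and hinders its contact with the polymerase. In the kinase module cyclin C pairs with CDK8 or its paralog CDK19, MED12 or MED12L activates the kinase, and MED13 or MED13L links the module to the core. The paralogs are thought to replace each other in a given complex.

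Only the authors' comparisons were analysed here, not values per library, so sequencing depth is unknown and a replicate SD cannot be given. Each log2 fold change is therefore given with a standard error (SE) recovered from the authors' F statistic. APEX1 stood at -1.50 (SE 0.08) in the authors' deposited table for APE1-KO and was the 1 gene past adjusted p 0.05 there, while XRCC1 stood at 0.14 (SE 0.11) in the authors' deposited table for XRCC1-KO. A frameshift need not lower a transcript, so the XRCC1 level does not check that label, and each direction below rests on it. All 8 basal mammary markers were measured, from a mean log2 CPM (library-scaled counts) of 6.95 for TP63 to 12.1 for KRT5, as were all 4 general epithelial markers. Of 7 fibroblast markers 2 were measured, as were 3 of 6 leukocyte, 1 of 4 endothelial and 3 of 4 neuronal markers. Of these, the neuronal marker TUBB3 had a mean log2 CPM of 8.28, above TP63. The others ran from -0.385 for KDR to 4.38 for CD68.

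The 3 paralog pairs of the kinase module can be told apart by their transcripts. In GENCODE 29 transcripts, no stretch of 31 bases was shared between MED12 and MED12L, between MED13 and MED13L, or between CDK8 and CDK19. The longest identical run in their coding sequences was 21 bases for MED12 and MED12L, 20 for MED13 and MED13L and 19 for CDK8 and CDK19. These runs are shown because a value of MED12 or CDK19 could otherwise be doubted as borrowed from its paralog; capitals mark the identical run, and the lower-case bases on each side belong to each gene.

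MED12: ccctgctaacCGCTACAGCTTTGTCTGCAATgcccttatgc
MED12L: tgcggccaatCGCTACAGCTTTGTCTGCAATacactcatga
MED13: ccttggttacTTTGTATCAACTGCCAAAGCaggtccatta
MED13L: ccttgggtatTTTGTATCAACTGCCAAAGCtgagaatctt
CDK8: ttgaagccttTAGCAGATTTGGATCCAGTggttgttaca
CDK19: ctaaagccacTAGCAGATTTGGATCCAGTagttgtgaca

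Per length, the members of a pair were not equally abundant. On the scale of mean log2 CPM per kb of the GENCODE 29 transcript, over all libraries, MED12 stood at 2.09 and MED12L at -2.31, a ratio of 21.0. CDK8 stood at 3.52 and CDK19 at 1.35 on the same scale, a ratio of 4.51. MED13, at 3.31, and MED13L, at 3.29, were near each other. CCNC, the cyclin of the module, stood at 5.42. In the core the same scale ran from 2.06 for MED28 to 6.10 for MED24, a tail subunit. This scale depends on the transcript chosen, which for MED28 has 10868 bases, 534 of them coding. Without division by length, MED28 had a mean log2 CPM of 5.50, above the core median of 5.02.

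In the libraries labelled XRCC1-KO, 6 of the 7 kinase-module genes lay below 0 and the core was evenly divided. The kinase module had a median log2 fold change of -0.21, or 0.862-fold, against 0.01 over the 26 core genes, of which 13 lay above 0 and 13 below. The median over all 13052 genes was 0.00. In bulk RNA, fewer cells that express a gene and less of its RNA per cell cannot be told apart. In all, 19 of the 33 members lay below 0, where 50.3% of all genes did. At adjusted p 0.05 no gene of 13052 passed in the authors' deposited table for XRCC1-KO, a background of 0%. At an unadjusted p under 0.05 the authors' edgeR test counted 1 member, MED12, against 5.96% of all genes; nothing is read from that count, since MED12 chose the list.

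**Figure D1:**
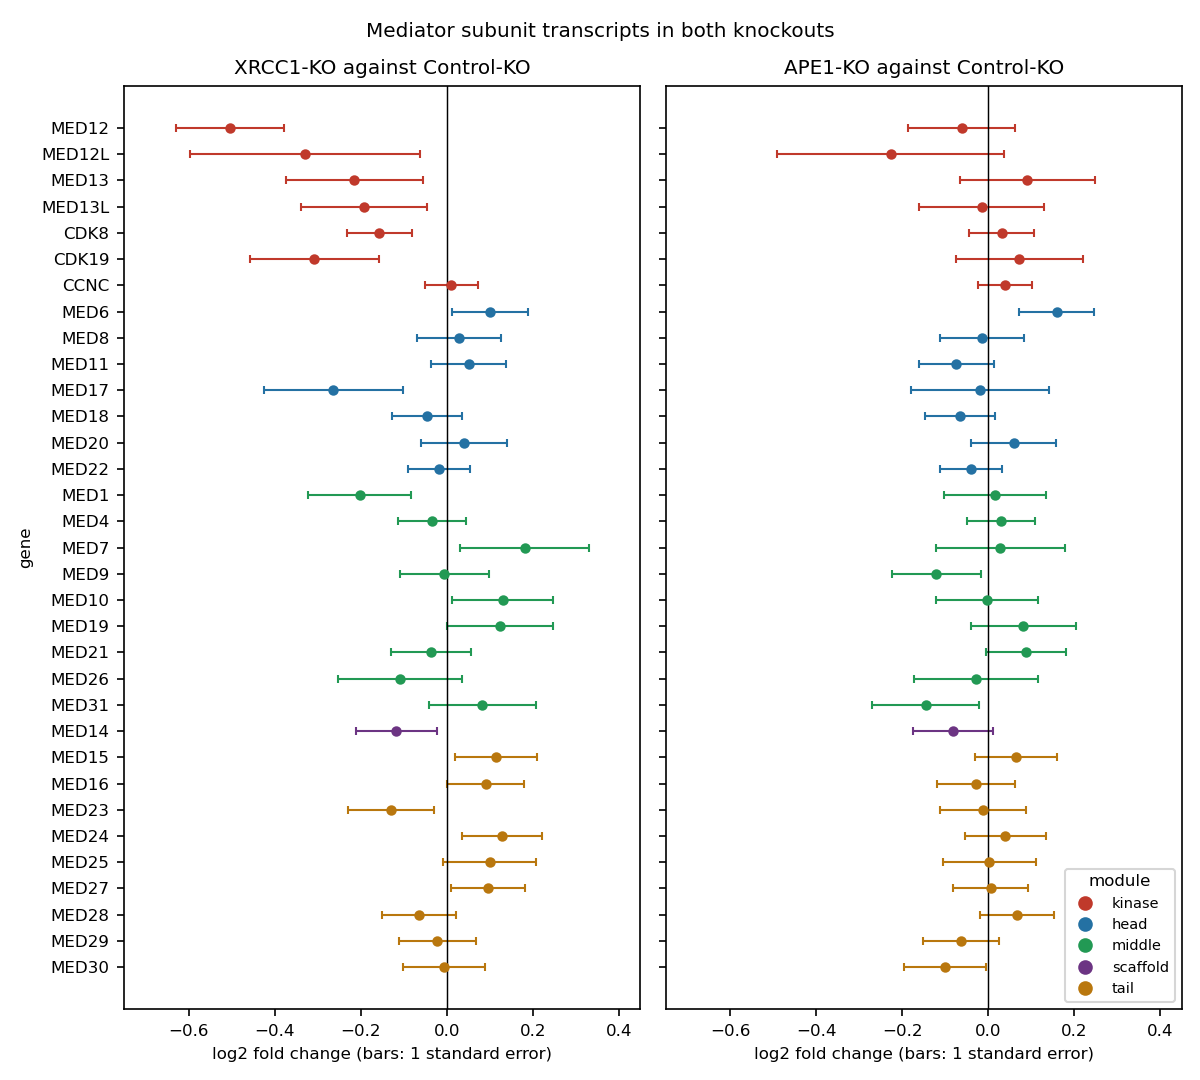
Deposited log2 fold change (horizontal axis) of each of the 33 Mediator genes (rows, coloured by module) against Control-KO, for XRCC1-KO on the left and APE1-KO on the right, with bars of 1 recovered standard error. In the XRCC1-KO panel the kinase module runs from -0.51 for MED12 to 0.01 for CCNC, and in the APE1-KO panel from -0.23 for MED12L to 0.09 for MED13.

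MED12 had the lowest value of the complex. The gene (ENSG00000184634.11) lies on hg19 chrX:70338406-70362303, plus strand. It stood at -0.51 (SE 0.13) in the authors' deposited table for XRCC1-KO, which is 70.5% of the Control-KO level (64.6% to 76.9% within 1 SE). By the p-value of the authors' edgeR test it ranked 17 of 13052 genes there, with an adjusted p of 0.76. Of 313 genes with a coding sequence of at least 6000 bases and a mean log2 CPM no lower than 1, 4 had a lower value than MED12. Since this low value chose the list, both places only describe it and nothing is read from them. In the authors' deposited table for APE1-KO MED12 stood at -0.06 (SE 0.12, 95% interval -0.33 to 0.20, F test p = 0.624, adjusted p = 1). The difference of XRCC1-KO minus APE1-KO, which does not contain the controls, was -0.44.

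The other kinase-module genes were lower by less, apart from cyclin C. CDK19 stood at -0.31 (SE 0.15) and its paralog CDK8 at -0.16 (SE 0.08) in the authors' deposited table for XRCC1-KO. MED13 stood at -0.21 (SE 0.16) and MED13L at -0.19 (SE 0.15) in that table. MED12L, the member of lowest abundance with a mean log2 CPM of 1.12, stood at -0.33 with a SE of 0.27, the largest SE of the 33 members. CCNC, at 0.01 (SE 0.06), was the 1 kinase-module gene not below 0 in the authors' deposited table for XRCC1-KO.

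The promoters of MED12, CDK8 and CCNC are shown because the first pair lay below 0 and CCNC, the kinase's own cyclin, did not. Each window runs from 250 bases before to 50 bases after the transcription start given by RefSeq on GRCh38.p14, and is written on the gene's strand. The windows are chrX:71118346-71118645 (plus) for MED12, chr13:26253879-26254178 (plus) for CDK8 and chr6:99568765-99569064 (minus) for CCNC, whose upstream start of 2 was taken. Capitals mark matches on either strand to any of 4 motifs searched. The first was the TATA box, spelled TATAAA, a core promoter element. The CCAAT box, which binds the factor NF-Y, was searched by its own letters. The GC box, spelled GGGCGG, is bound by Sp1 and related factors. The ETS motif was spelled CCGGAAG, and no motif overlaps another in these windows.

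MED12: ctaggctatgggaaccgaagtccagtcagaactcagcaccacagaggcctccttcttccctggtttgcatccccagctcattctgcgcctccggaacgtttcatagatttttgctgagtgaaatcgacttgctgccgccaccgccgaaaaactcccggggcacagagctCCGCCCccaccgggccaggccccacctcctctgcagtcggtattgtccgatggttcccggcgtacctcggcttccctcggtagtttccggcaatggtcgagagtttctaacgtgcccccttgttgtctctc
CDK8: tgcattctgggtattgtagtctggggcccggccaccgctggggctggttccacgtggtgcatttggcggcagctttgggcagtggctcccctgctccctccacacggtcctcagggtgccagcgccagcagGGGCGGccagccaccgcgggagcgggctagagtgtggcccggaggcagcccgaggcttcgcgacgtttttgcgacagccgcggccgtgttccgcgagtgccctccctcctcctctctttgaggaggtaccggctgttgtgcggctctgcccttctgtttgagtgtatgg
CCNC: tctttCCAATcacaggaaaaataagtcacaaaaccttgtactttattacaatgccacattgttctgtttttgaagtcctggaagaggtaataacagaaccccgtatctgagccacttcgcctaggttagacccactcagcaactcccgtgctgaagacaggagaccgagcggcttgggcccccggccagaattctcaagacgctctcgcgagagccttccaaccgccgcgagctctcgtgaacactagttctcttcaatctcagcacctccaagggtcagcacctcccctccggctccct

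MED12 and CDK8 each held 1 GC box and no CCAAT box in these windows, and CCNC held 1 CCAAT box and no GC box. The windows of CDK19, MED12L and MED13L, which also lay below 0 in XRCC1-KO, each held a CCAAT box. Those of CDK19 and MED13L held a GC box as well, that of MED12L held none, and MED13 had no window. A relation between these motifs and the fold changes was not tested. A GC box was found in 44.5% of 27305 windows, each the most upstream start of a gene, measured here or not, and a CCAAT box in 35.7%. A match is a description of letters and shows no binding.

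The measured neighbours of MED12 on chromosome X lay closer to 0. Among 10 other genes within 1000 kb whose mean log2 CPM was 1 or more, the median was -0.05 on the log2 scale in the authors' deposited table for XRCC1-KO, with a range from -0.18 to 0.16. TAF1, the largest TFIID subunit, stood at -0.18 (SE 0.11), and FOXO4, a forkhead transcription factor, at -0.18 (SE 0.20). The glycosyltransferase gene OGT stood at 0.02 (SE 0.11). Over 362 measured genes of chromosome X at that abundance the median was -0.01, and none lay below MED12. MED12 was picked for its low value in XRCC1-KO, so its place below these genes partly restates that choice and was not tested.

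**Figure D2:**
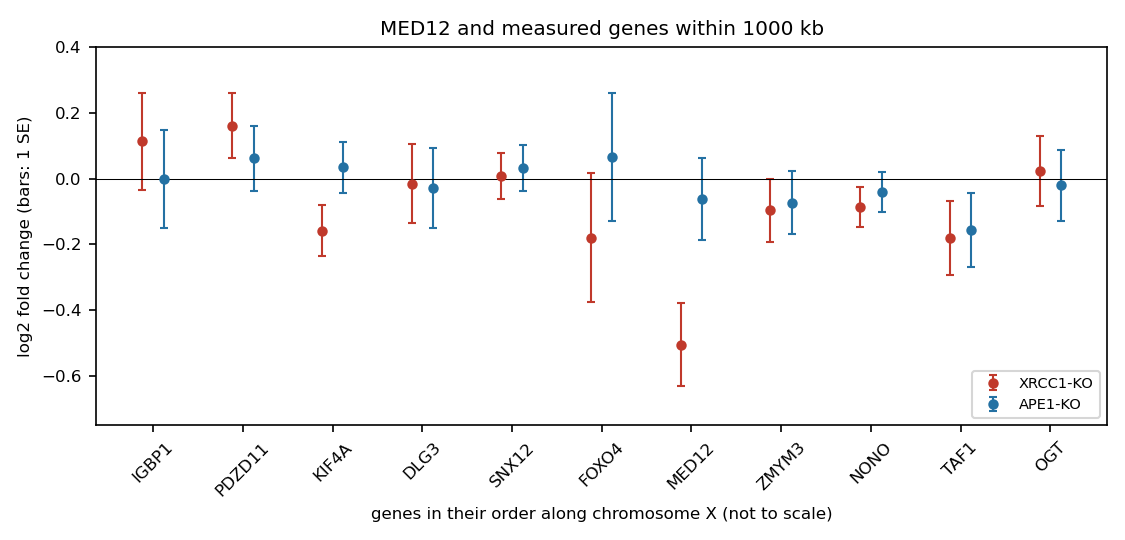
Deposited log2 fold change (vertical axis, bars of 1 recovered standard error) of MED12 and of the 10 other genes within 1000 kb, in chromosome order, in XRCC1-KO (red) and APE1-KO (blue). MED12 at -0.51 lies below its neighbours in XRCC1-KO, which run from -0.18 to 0.16. MED12 was picked for its low value in that comparison.

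Among the core genes, values in the libraries labelled XRCC1-KO ran from -0.26 to 0.18. MED17, a head subunit around which the head module is built, was the lowest core gene at -0.26 (SE 0.16) in the authors' deposited table for XRCC1-KO. MED1, the middle subunit that binds nuclear receptors, followed at -0.20 (SE 0.12), and MED23, a tail subunit that binds activators, at -0.13 (SE 0.10). MED14, the scaffold of the core, stood at -0.12 (SE 0.09). These 4 genes lay on the side of the kinase module, each by less than 2 SE.

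The highest core genes were MED7, MED10 and MED24. MED7, a middle subunit, stood at 0.18 (SE 0.15), MED10, also of the middle, at 0.13 (SE 0.12) and MED24, a tail subunit, at 0.13 (SE 0.09) in the authors' deposited table for XRCC1-KO. MED15, the tail subunit known as a target of activators in yeast as well as in animals, stood at 0.11 (SE 0.10) and MED25, which has an activator-binding domain, at 0.10 (SE 0.11). MED26, the middle subunit that recruits elongation factors, stood at -0.11 (SE 0.15).

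By module, the core showed no common direction in XRCC1-KO. The 7 head genes had a median of 0.03 with 4 above 0, the 9 middle genes -0.01 with 4 above 0, and the 9 tail genes 0.09 with 5 above 0. The remaining head genes MED6, MED8, MED11, MED18, MED20 and MED22 lay between -0.05 and 0.10 in the authors' deposited table for XRCC1-KO. The remaining middle genes MED4, MED9, MED19, MED21 and MED31 lay between -0.04 and 0.12 there, and the remaining tail genes MED16, MED27, MED28, MED29 and MED30 between -0.06 and 0.10.

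Transcript length moved with these values. Across 11141 nuclear genes whose mean log2 CPM was 1 or more, Spearman's rho between the XRCC1-KO log2 fold change and transcript length was -0.450, and over the 33 members it was -0.585. With coding length in its place rho was -0.354 over all genes and -0.460 over the members. Within the 26 core genes alone the relation was weaker, with a rho of -0.362 for transcript length and -0.179 for coding length. The genes share the same libraries, and these values are descriptions across genes. In APE1-KO rho with transcript length was 0.09 over all genes and 0.03 over the members. The kinase module had a median transcript of 6795 bases against 2324.5 in the core, and a median coding length of 6435 bases against 777. MED12, MED12L, MED13 and MED13L have at least 6000 coding bases each, CDK19 1506, CDK8 1392 and CCNC 849. Over all 357 genes with at least 6000 coding bases the XRCC1-KO median was -0.06, and 63.0% lay below 0. In 10 bins of coding length, the median XRCC1-KO log2 fold change over all genes went from 0.10 in the shortest bin to -0.08 in the longest.

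**Figure D3:**
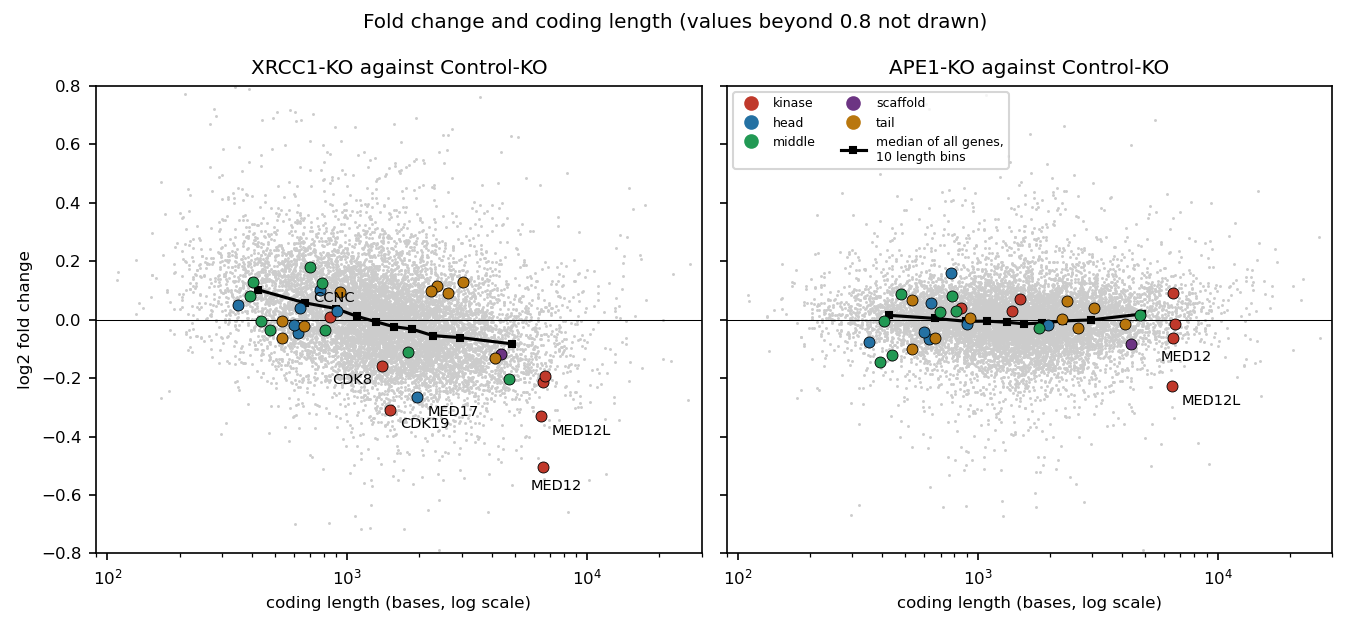
Deposited log2 fold change (vertical axis) against coding length in bases (horizontal log axis) for 11141 genes (grey) and the Mediator genes (coloured by module), with the median of all genes in 10 length bins (black line). In XRCC1-KO the line goes from 0.10 to -0.08 and MED12 lies at -0.51; in APE1-KO the line stays between -0.01 and 0.02.

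The core was also divided by coding length. MED1, MED14, MED23 and MED24, the 4 core genes with at least 3000 coding bases, had a median of -0.12 in XRCC1-KO, and 3 of them lay below 0. The other 22 core genes had a median of 0.03, with 10 below 0. Over all 1842 genes with at least 3000 coding bases the median was -0.07 and 67.7% lay below 0, so 3 of 4 is near the share of all genes of that length. Over the 3897 genes with under 1000 coding bases the median was 0.07.

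A trend on transcript length and GC content was fitted over nuclear genes of mean log2 CPM 1 or more. Subtracting this trend took the difference between the kinase-module and core medians in XRCC1-KO from -0.23 to -0.12. The kinase-module median became -0.12 and the core median 0.00. MED12 kept most of its value, at -0.46, and the trend expected for a gene of its length and GC content was -0.05. CDK19 then stood at -0.22 and CDK8 at -0.12, while MED13 moved from -0.21 to -0.09 and MED13L from -0.19 to -0.10. MED14 moved from -0.12 to -0.01, MED1 from -0.20 to -0.13, and MED17, whose transcript is of 2317 bases, from -0.26 to -0.25. After subtraction 6 of 7 kinase-module genes and 13 of 26 core genes lay below 0, the same counts as before. The core genes counted were not all the same: MED22 and MED28 moved above 0, and MED8 and MED11 moved below it.

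**Figure D4:**
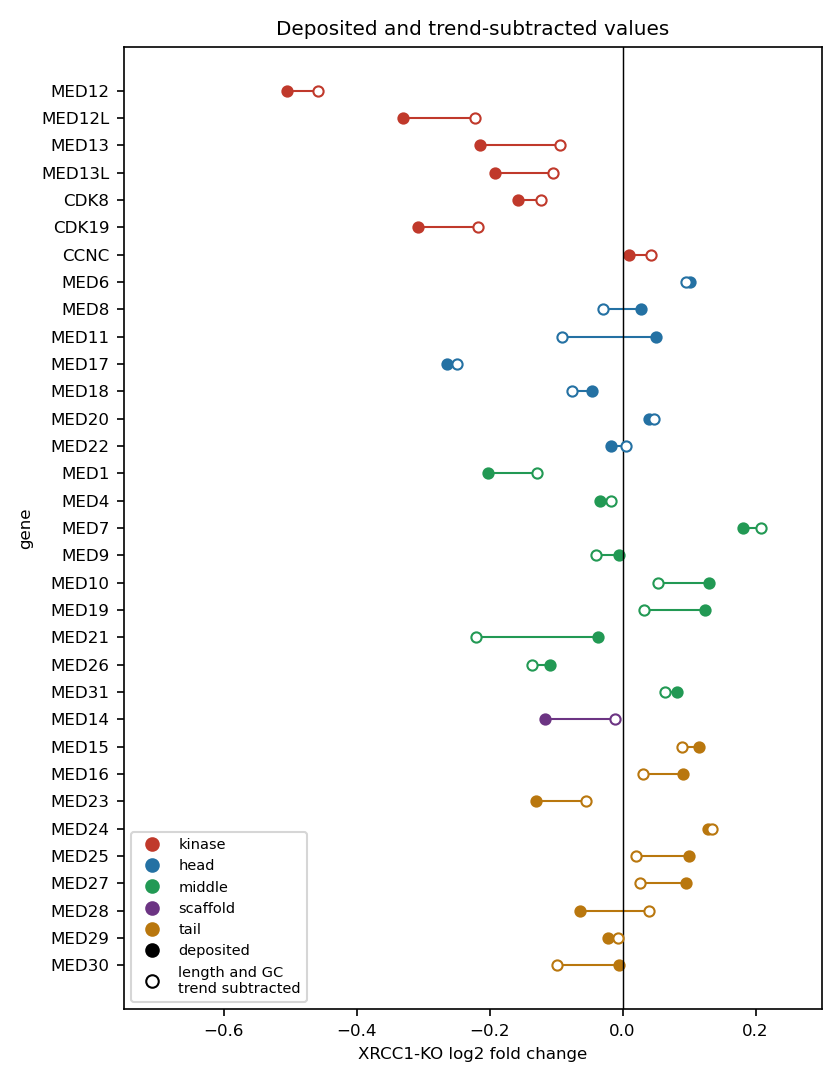
XRCC1-KO log2 fold change (horizontal axis) of each Mediator gene (rows, coloured by module) as deposited (filled) and after the trend on transcript length and GC content is subtracted (open). MED12 moves from -0.51 to -0.46, MED13 from -0.21 to -0.09 and MED14 from -0.12 to -0.01.

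In APE1-KO cells no Mediator gene passed the test. Of the 33 members 0 had an unadjusted p under 0.05 by the authors' edgeR test, where 1.45% of all 13052 genes did, and 0 passed adjusted p 0.05, where 0.00766% of all genes did. The smallest p belonged to MED6, a head subunit. In the authors' deposited table for APE1-KO it stood at 0.16 (95% interval -0.03 to 0.34, p = 0.088, adjusted p = 1). The members had a median of 0.00, and 17 of 33 lay below 0 against 50.5% of all genes. The precision differed between genes. Among the core genes the narrowest 95% interval was that of MED22, from -0.19 to 0.11 on the log2 scale, and the widest that of MED17, from -0.36 to 0.32, with a median SE of 0.10 over the 26.

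In APE1-KO the kinase module had a median log2 fold change of 0.03 against -0.01 for the core, a difference of 0.04. MED13 stood at 0.09 (95% interval -0.24 to 0.43), CDK19 at 0.07 (-0.24 to 0.39) and CCNC at 0.04 (-0.09 to 0.17) in the authors' deposited table for APE1-KO. CDK8 stood at 0.03 (-0.13 to 0.19), MED13L at -0.02 (-0.33 to 0.29) and MED12L at -0.23 (-0.79 to 0.33) there. MED12L was the 1 gene of the complex with an absolute value of 0.2 or more in that table.

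In the core, the highest values in the authors' deposited table for APE1-KO after MED6 belonged to the middle subunits MED21, at 0.09 (SE 0.09), and MED19, at 0.08 (SE 0.12). The lowest belonged to MED31, a middle subunit, at -0.15 (SE 0.12), MED9, also of the middle, at -0.12 (SE 0.10), and MED30, a tail subunit, at -0.10 (SE 0.10). MED1 stood at 0.02, MED14 at -0.08, MED15 at 0.06, MED17 at -0.02, MED23 at -0.01, MED25 at 0.00 and MED26 at -0.03 in the authors' deposited table for APE1-KO. The 7 head genes had a median of -0.02, the 9 middle genes 0.02 and the 9 tail genes 0.00.

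MED12, MED12L and MED13L lay below 0 in both tables, and MED13, CDK8 and CDK19 below 0 in XRCC1-KO and above it in APE1-KO, where both comparisons share the control libraries. The difference of XRCC1-KO minus APE1-KO was -0.38 for CDK19, -0.31 for MED13, -0.19 for CDK8, -0.18 for MED13L, -0.10 for MED12L and -0.03 for CCNC. In the core it was -0.25 for MED17 and -0.22 for MED1. These differences contain the XRCC1-KO values that chose the list and were not tested.

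Other genes of transcription showed how the complex compared with its partners. The 5 lists held 64 measured genes. For APE1-KO the edgeR p-value before adjustment was below 0.05 for 0 of them, against 1.45% of all 13052 genes. At so low a share, a count of 0 does not set these lists apart from all genes. After adjustment 0 of the 64 passed 0.05, against 0.00766% of all genes. In the authors' deposited table for XRCC1-KO 2 were higher and 6 lower at an unadjusted p under 0.05, against 3.26% and 2.70% of all genes, and 0 passed adjusted p 0.05. The 10 genes of cohesin and its loader, which work with Mediator in looping enhancers to promoters, had a median of -0.16 in XRCC1-KO and all 10 lay below 0. The share below 0 was 50.3% over all genes and 67.7% over genes with at least 3000 coding bases. STAG2, a cohesin subunit, stood at -0.30 (SE 0.10) and RAD21, the subunit that closes the ring, at -0.25 (SE 0.10) in the authors' deposited table for XRCC1-KO. The cohesin list had a median coding length of 3736.5 bases. With the length and GC trend subtracted its median was -0.08, and its genes no longer all lay below 0.

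The polymerase, the general factors and the elongation list lay nearer 0 as deposited, and by median their genes are shorter than those of cohesin. Median coding lengths were 495 bases for the polymerase, 1047 for TFIID, 1111.5 for TFIIH and 1767 for the elongation list. With the length and GC trend subtracted, their medians in XRCC1-KO were -0.04, -0.02, 0.01 and -0.03, in that order. The 12 RNA polymerase II subunits had a median of 0.05 in XRCC1-KO, with POLR2L, a small shared subunit, at 0.36 (SE 0.12) and POLR2B, the second largest subunit, at -0.17 (SE 0.08) in the authors' deposited table for XRCC1-KO. The 15 measured TFIID genes of 16 had a median of -0.03, with TAF10 at 0.25 (SE 0.10) and TAF4 at -0.18 (SE 0.07). The 10 TFIIH genes, which include the kinase CDK7, had a median of 0.01. The 17 genes of elongation kinases and the super elongation complex had a median of -0.05, with CCNT1, a cyclin of CDK9, at -0.20 (SE 0.08) and MLLT1, a chromatin reader of the complex, at -0.23 (SE 0.09) in the authors' deposited table for XRCC1-KO. In APE1-KO the medians of the 5 lists lay between -0.04 for TFIID and 0.02 for the elongation list.

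**Figure D5:**
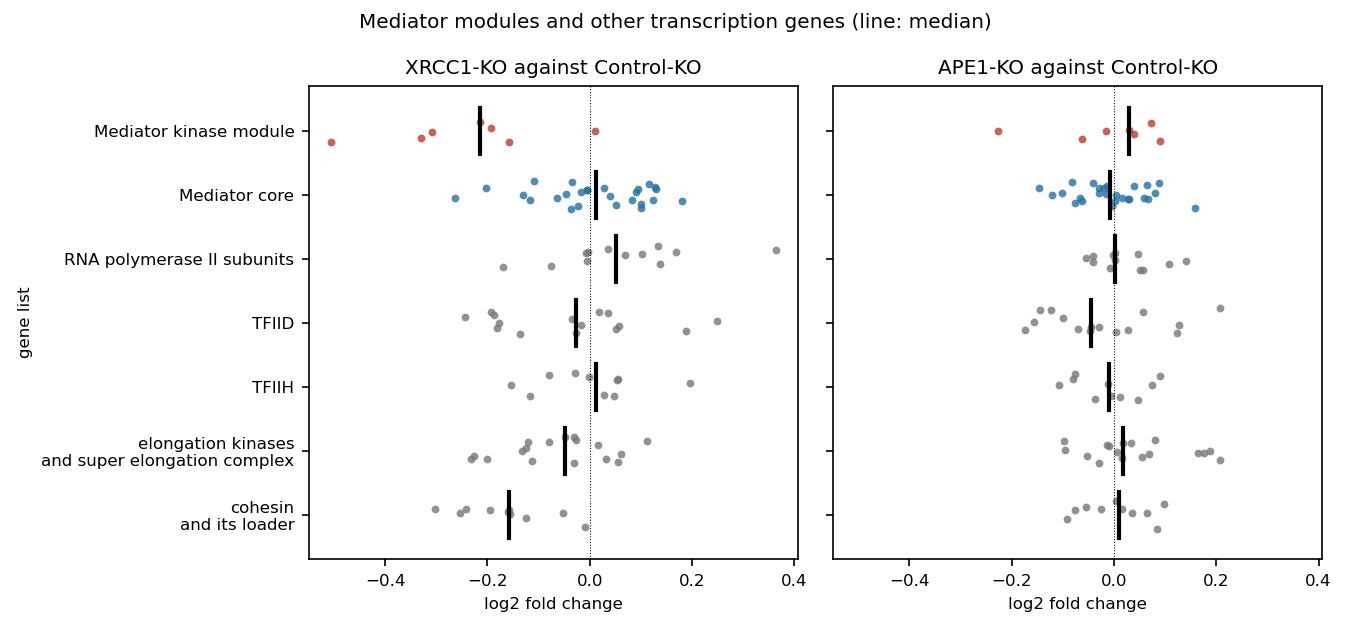
Deposited log2 fold change (horizontal axis) of each gene (points, spread vertically at random) in the Mediator kinase module, the Mediator core and 5 other lists of transcription genes, with the median as a black line, in XRCC1-KO (left) and APE1-KO (right). In XRCC1-KO the kinase module (-0.21) and cohesin with its loader (-0.16) have the lowest medians of the 7 groups. They also have the longest median coding lengths, 6435 and 3736.5 bases. Within the kinase module CDK19, CDK8 and CCNC are shorter, with 1506, 1392 and 849 coding bases. A relation of length to these medians was not tested.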

How the data were processed

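The submitters' processing notes name Trim Galore, Salmon 1.4.0, edgeR and the build hg19 without order or settings. The deposited columns are, per the file headers, a log2 fold change of knockout over Control-KO, a mean log2 CPM, an F statistic (a score with no unit), a p-value and a false discovery rate. The deposited −log10 of the p-value was not needed. The sources used here do not give the model, the filters or the normalisation, and the depth per library is unknown.

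The SE was recovered as the size of the log2 fold change over the root of F; for F below 0.01 (2 members in XRCC1-KO, 3 in APE1-KO) the SE of the other comparison was taken. Intervals of 95% use Student's t with 15.2 degrees of freedom, the median solved from F and p over genes with F of at least 3. Transcript length, coding length and GC content came from the GENCODE 29 transcript of longest coding sequence per gene, matched by gene ID for 12838 genes and all 33 members. The length and GC trend was a Huber regression with quadratic terms (statsmodels 0.14.6) over 11175 nuclear genes of mean log2 CPM 1 or more. It was tried on simulated data with a linear trend and equal, independent noise in every gene, which is simpler than these data. Promoters came from RefSeq for 25 of the 33 members.

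The members, modules and lists were chosen with earlier results of these data known. All members could be named; other genes were the targeted genes, up to 4 per list with the smallest p-values, and neighbours of MED12, chosen after the values were seen. Sources differ on the module of MED19, MED26 and MED27 to MED30.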

Additional observations from a re-analysis of the deposited data

How the results depend on the processing

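No paired analysis was possible because the tables hold no values per library, and for the same reason no replicate could be left out. The difference between the kinase-module and core medians in XRCC1-KO, -0.23 as reported, was -0.12 with the trend on transcript length and GC content subtracted and -0.12 with coding length in place of transcript length, a setting added after the data were seen. It was -0.21 without MED12, and subtracting the median of all genes or keeping only genes of mean log2 CPM 1 or more left it at -0.23. In APE1-KO the difference ran from 0.02 to 0.04 under these settings. MED12 in XRCC1-KO ran from -0.51 to -0.45, and in APE1-KO from -0.07 to -0.06. The count of members below 0 stayed at 19 in XRCC1-KO, though not always of the same genes, and ran from 15 to 17 in APE1-KO. With a threshold of 0.01 the counts by unadjusted p of the authors' edgeR test were 1 in XRCC1-KO and 0 in APE1-KO. The 1 is MED12, which chose the list, so nothing is read from that count. The share of all genes at that threshold was not computed. The trend depends on the transcript chosen: MED21 moved from -0.04 to -0.22 with transcript length and to -0.11 with coding length, and MED28 from -0.06 to 0.04 and to -0.11. A library that stands apart would not be visible in these tables.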

Other observations

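The promoter windows of the Mediator genes held more CpG than RefSeq windows at large, which include genes not measured here. They were not compared with the windows of measured genes alone. Over the 25 members with a RefSeq window the median was 21 CpG in 300 bases, where all 27305 windows had a median of 13, while the median GC content was 58.0% against 58.3%. An ETS motif (CCGGAAG, either strand) was found in 7 of the 25 windows and in 10.6% of all windows, and none of the 7 belonged to the kinase module, of which 6 genes had a window. A CCAAT box was found in 4 of those 6, in CCNC, CDK19, MED12L and MED13L, and a GC box in 4, in CDK19, CDK8, MED12 and MED13L. A TATA box was found in 2 of the 25 windows and in 12.02% of all windows. These are counts of letters, and no measure of binding was analysed here.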
